A study of Mus musculus with 12 samples.

Results

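Levels of 10 genes that mark or act in stem and progenitor cells of the blood were compared across 11 bone marrow libraries: Cd34, Kit, Ly6a, Slamf1, Cd48 and Cd27, which encode surface proteins used to gate these cells, Mecom, Sox4 and Myb, which encode transcription factors, and Msi2, which encodes an RNA-binding protein. They were taken by symbol, and all 10 were found among the 12199 genes counted and passed the filter on low counts, so 10 of the 12175 genes tested are described. RNA came from whole bone marrow of C57BL/6 mice, with no sort for stem cells, in 4 genotypes: wild type (WT, n = 3 libraries), Dnmt3aFlox/+:MxCre with Flt3 ITD/+ (DF, n = 3), Tet2+/- with Flt3ITD/+ (TF, n = 3) and Tet2+/- with Flt3ITD/+ and Dnmt3aFlox/+; MxCre (TFD, n = 2). All mice, WT included, had received poly(I:C) at 8 to 10 weeks of age and were analysed 8 to 9 weeks later. The Cre of the DF and TFD mice is driven by the interferon-responsive Mx1 promoter, which poly(I:C) induces and which is also active outside blood cells, whereas the labels give no Cre for TF and WT. The question was how the genotypes differ in these genes.

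In the mouse, the rare cells that can rebuild the blood are found among marrow cells without lineage markers that carry Kit and Sca-1, the product of Ly6a. Within that fraction, long-term stem cells carry Slamf1 (CD150) and lack CD48, Cd34 and Cd27 appear as stem cells become multipotent progenitors, and later myeloid progenitors keep Kit and lose Sca-1. Several of these genes are also transcribed in cells that are far more numerous in marrow. Cd48 is found on most leukocytes, Ly6a on T cells and endothelium, Cd27 on T, B and NK cells, Cd34 on endothelium, and Kit on mast cells. In RNA from bulk marrow, fewer cells of a type and less RNA per cell cannot be told apart.

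Counts summed to between 8274153 and 15900904 per library. The labels do not say whether libraries of a genotype came from separate mice. The paper's statistics state that data points were individual mice, without naming the RNA libraries. The p-values measure the spread between these libraries. Neither Tet2 nor Dnmt3a was called lower in a genotype that carries its altered allele. The log2 fold changes were 0.21 for Tet2 in TF and −0.15 for Dnmt3a in DF (adjusted p = 0.33 and 0.578). In TFD, Tet2 had 0.25 and Dnmt3a 0.29 (adjusted p = 0.318 and 0.382). In the genotypes without the altered allele, Tet2 was called higher in DF (0.49, adjusted p = 0.0261) and Dnmt3a in TF (0.58, adjusted p = 0.0444). Counts over whole genes do not separate the alleles. Within a genotype the TFD libraries differed most, with a chi-square of their counts of 65.4 per gene, against 10.3 to 31.9 in pairs of the other genotypes, and all TFD values rest on these 2 libraries. TF replicate 3 differed from the other TF libraries in markers of other cells. Its summed T cell markers were 80.8 CPM (reads scaled to a common library size) against 36.6 and 34.5 in TF replicates 1 and 2, and its erythroid markers 1421.5 against 537.1 and 645.5. It is also among the 3 libraries with at least 10000 reads of Xist, a transcript of the inactive X chromosome, with WT replicate 3 and TFD replicate 2. The other 8, all DF libraries among them, had at most 538. Ddx3y, a gene of the Y chromosome, had 3 to 12 reads in these 3 libraries and 1040 to 2132 in the other 8. By these reads the 3 libraries are female and the other 8 male, so sex was not balanced and DF was all male.

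Cd34 and Cd48 were higher than in WT in all 8 mutant libraries, by 3.47 to 3.90 fold for Cd34 and 2.66 to 3.58 fold for Cd48. Cd27 was higher in DF and TF, and Msi2 was lower in both. Ly6a and Slamf1 were lower in DF and TFD, by 4.07 to 6.11 fold and 3.81 to 7.70 fold. Sox4 was lower in DF and Myb in TF, and Kit and Mecom passed the test in no comparison.

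By edgeR's quasi-likelihood test at an adjusted p under 0.05, 7 of the 10 members were called in DF versus WT, 3 higher and 4 lower, where 37.6% of all genes tested were called, 21.0% higher and 16.6% lower. Of these calls over all genes, 55.9% were higher, and 42.3% with library totals as the scale. In TF versus WT 5 members were called, 3 higher and 2 lower, where 34.6% of all genes were called, 19.0% higher and 15.6% lower. In TFD versus WT 4 were called, 2 higher and 2 lower, against 26.3% of all genes, 14.7% higher and 11.6% lower. The mean of DF, TF and TFD against WT gave 7, 3 higher and 4 lower, against 42.1%, 22.4% higher and 19.7% lower. In each of these comparisons a large share of the transcriptome was called, so such counts do not set the members apart. The median log2 fold change of the members was 0.11 in DF, −0.12 in TF and −0.13 in TFD, beside 0.06, 0.02 and 0.01 over all genes. For 3 members the mutant libraries all lay above WT and for 1 all below, where 27.8% of all genes tested did not overlap, 16.1% with the mutants higher and 11.8% with the mutants lower. The 3 comparisons with WT share the WT libraries.

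**Figure D1:**
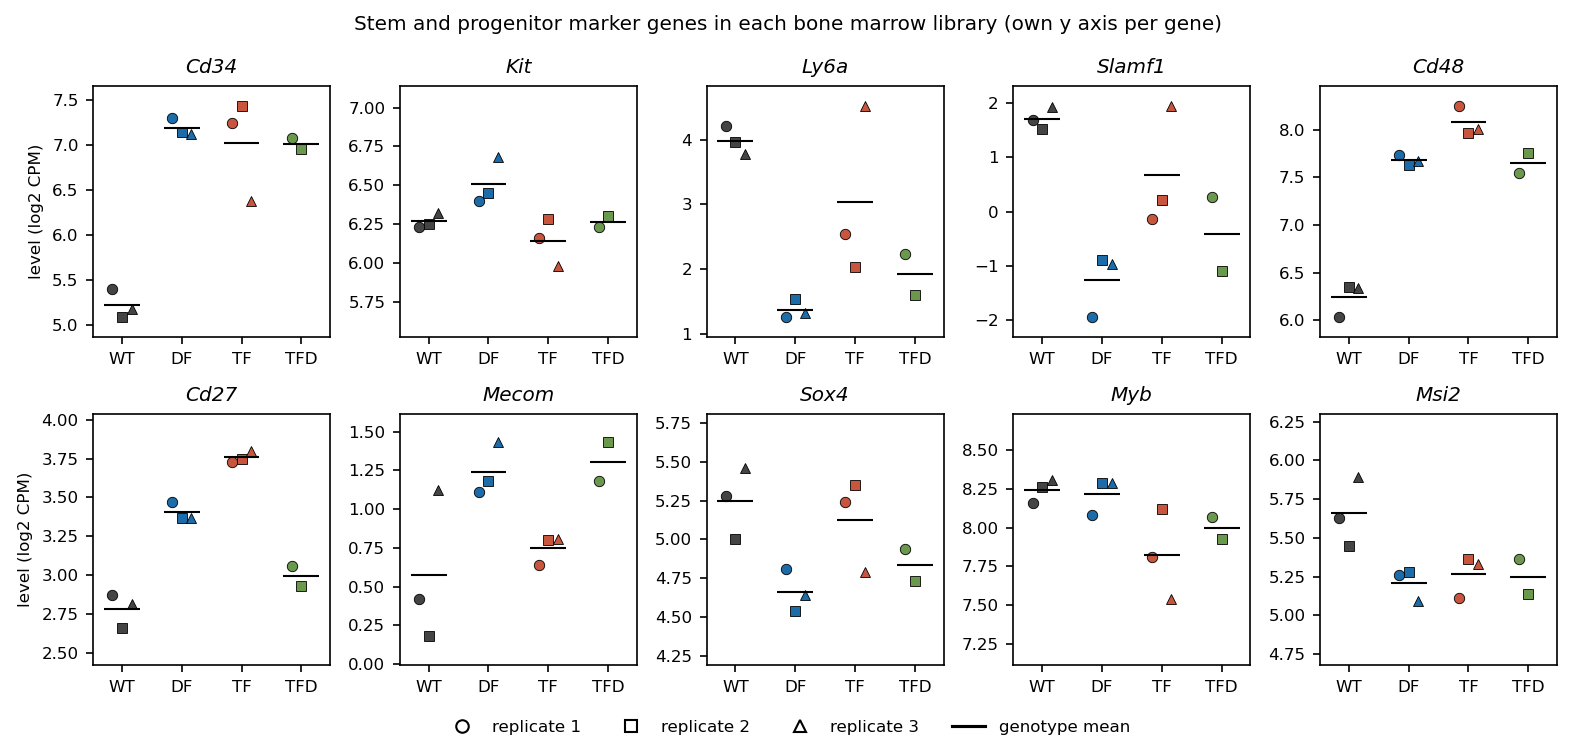
Level of each member gene, in log2 CPM, in each library of the 4 genotypes, with 1 panel and y axis per gene; marker shapes give replicate numbers and black lines genotype means. Cd34 and Cd48 of all 8 mutant libraries sit above WT, whereas for Ly6a and Slamf1 TF replicate 3 sits with WT and the other mutant libraries below.

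Cd34 encodes a sialomucin of progenitor and endothelial surfaces that can bind selectins. Its level was 42.1, 34.2 and 36.2 CPM in the WT libraries, 157.6, 141.5 and 140.1 in DF, 152.4, 173.8 and 83.5 in TF, and 135.7 and 124.7 in TFD. Every mutant library was above every WT library, and TF replicate 3 was the lowest of the mutants. The gene was 3.90-fold higher than WT in DF (95% confidence interval 2.83 to 5.36, adjusted p = 3.28e-05), 3.64-fold in TF (2.65 to 5.0, adjusted p = 5.24e-05) and 3.47-fold in TFD (2.46 to 4.87, adjusted p = 0.00014). Leaving out any library kept these calls. The 3 mutant genotypes were close to one another: no log2 difference in Cd34 between them was larger than 0.17, with intervals from −0.34 to 0.53 for DF minus TF, −0.66 to 0.32 for TFD minus DF and −0.56 to 0.42 for TFD minus TF. Of the endothelial and stromal markers, 0 of 6 tested were called in the mean of the mutants against WT. Their summed level was 80.3 to 91.9 CPM in WT and 73.8 to 113.3 in the mutants. Pecam1 alone held 51.3 to 57.6 CPM of this sum in WT. Cdh5, an endothelial gene named after its values were seen, was scarce, at 1.64 to 2.24 CPM in WT. It was called lower in DF (0.238 to 0.792 CPM, −2.11, SE 0.61, adjusted p = 0.0158) but not in TF or TFD. For Cdh5, DF minus TF was −2.3 (adjusted p = 0.0407), and TF replicate 3 was the highest library, at 4.1 CPM. The part of endothelial cells in the Cd34 and Ly6a values was not tested. Podxl, a sialomucin of the CD34 family, was named after its values were seen. It was called higher in TF and TFD, with log2 values of 2.0 (SE 0.39) and 1.33 (SE 0.42) against WT, beside 0.58 in DF (adjusted p = 0.28). The TFD value rested on replicate 1, and without it was 0.51 (adjusted p = 0.503).

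Kit encodes the receptor of stem cell factor and defines the progenitor gate. It was at 75.2, 76.2 and 79.9 CPM in WT, 84.2, 87.5 and 102.3 in DF, 71.4, 77.6 and 63.3 in TF, and 75.3 and 78.7 in TFD. The DF libraries were all above WT, whereas TF and TFD overlapped WT. No difference passed the test. The log2 fold changes of DF, TF and TFD were 0.24, −0.12 and −0.004 (SE 0.11 to 0.12), with adjusted p values of 0.0913, 0.39 and 0.986. Their 95% intervals ran from 0.01 to 0.48, from −0.36 to 0.11 and from −0.26 to 0.26, so changes of Kit beyond 1.39-fold higher lay outside all 3. Kitl, the ligand of Kit, was low, at 2.23 to 3.49 CPM in WT, and passed the test in none of the 3 genotypes (adjusted p = 0.0707 for DF, 0.415 for TF and 0.566 for TFD). Among basophil and mast cell markers, 0 of 6 were called higher and 3 lower in the mean of the mutants.

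Ly6a encodes Sca-1, a GPI-anchored protein that defines the stem cell gate with Kit and is inducible by interferon. It had 225, 126 and 153 counts in the WT libraries, or 18.5, 15.6 and 13.7 CPM. In DF the counts were 30, 45 and 25 (2.38, 2.90 and 2.47 CPM), in TF 72, 50 and 251 (5.82, 4.09 and 22.9 CPM), and in TFD 75 and 34 (4.69 and 3.03 CPM). All mutant libraries were below WT except TF replicate 3, which was above every WT library. Against WT, the DF level of Ly6a was 6.11-fold lower, by −2.61 ± 0.52 (SE) on the log2 scale with an adjusted p of 0.00201. TFD was 4.07-fold lower than WT, by −2.02 ± 0.57 (SE), with an adjusted p of 0.0205. With either TFD library left out, TFD missed the threshold, with −2.39 (adjusted p = 0.0616) without replicate 1 and −1.76 (adjusted p = 0.116) without replicate 2. In these fits 1 TFD library remains and is assumed to vary like the libraries of the other genotypes, so the lost calls say little about the size of the fall. In TF the log2 fold change was −0.55 (SE 0.46, adjusted p = 0.375), and without TF replicate 3 it was −1.68 (adjusted p = 0.00014).

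Slamf1 encodes CD150, a receptor that binds itself on neighbouring cells and marks long-term stem cells, but also some T cells and megakaryocyte progenitors. It was scarce, with 39, 23 and 42 counts in WT, 3, 8 and 5 in DF, 11, 14 and 42 in TF, and 19 and 5 in TFD. In CPM these are 3.2, 2.85 and 3.76 in WT, 0.238, 0.515 and 0.495 in DF, 0.889, 1.15 and 3.83 in TF, and 1.19 and 0.446 in TFD. The order of libraries resembled that of Ly6a: DF and TFD lay below WT, and TF replicate 3 lay just above the WT range with the other TF libraries below it. Against WT, the DF level of Slamf1 was 7.70-fold lower, by −2.95 ± 0.59 (SE) on the log2 scale with an adjusted p of 0.00202. TFD was 3.81-fold lower than WT, by −1.93 ± 0.60 (SE), with an adjusted p of 0.0315. The TFD call was lost without any of the 3 WT libraries (adjusted p = 0.0576, 0.0537 and 0.078) and without TFD replicate 2 (−1.45, adjusted p = 0.163). Without TFD replicate 1 it held, at −2.85, so the size of the fall in TFD depends on which of the 2 libraries is used. In TF the log2 fold change was −0.77 (SE 0.49, adjusted p = 0.241), and without TF replicate 3 it was −1.68 (adjusted p = 0.0058). At 3 to 8 counts per DF library, counting error alone is large.

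Markers of other cells moved in the same libraries. In TF replicate 3 and in WT, summed T cell markers were 64 to 80.8 CPM, against 20.2 to 36.6 in the other mutant libraries, although Cd8a (5.38 CPM) and Cd8b1 (2.37 CPM) in TF replicate 3 were below every WT library. Of the NK cell markers, Ncr1, Klrb1c, Prf1, Gzma and Eomes were below WT in every mutant library, TF replicate 3 included. Klrd1 was instead highest in TF, at 16.8, 8.1 and 34.9 CPM against 6.53 to 7.18 in WT, and made up most of the summed NK cell level of 44.3 CPM in TF replicate 3. Erythroid markers were 1344.2 to 1767.0 CPM in WT and 1421.5 in TF replicate 3, against 289.9 to 645.5 in the other mutant libraries. B cell precursor markers were 549.9 to 662.5 in WT, 83.0 in TF replicate 3 and 16.9 to 30.6 in the others. Megakaryocyte markers, at 46.5 to 67.1 in WT, did not order the libraries in this way, with 36.0 to 45.3 in DF and 26.3 to 48.8 in TF. They differed most within TFD, at 121.9 CPM in replicate 1 and 35.9 in replicate 2, and Slamf1 was also higher in replicate 1 (1.19 against 0.446 CPM). In the mean of the mutants against WT, 7 of 10 T cell, 5 of 6 NK cell, 8 of 8 erythroid and 11 of 11 B cell precursor markers tested were called lower and none higher. None of the summed markers was at 0 in all libraries of a genotype. The part of these cells and of megakaryocytes in the Ly6a and Slamf1 values was not tested.

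**Figure D2:**
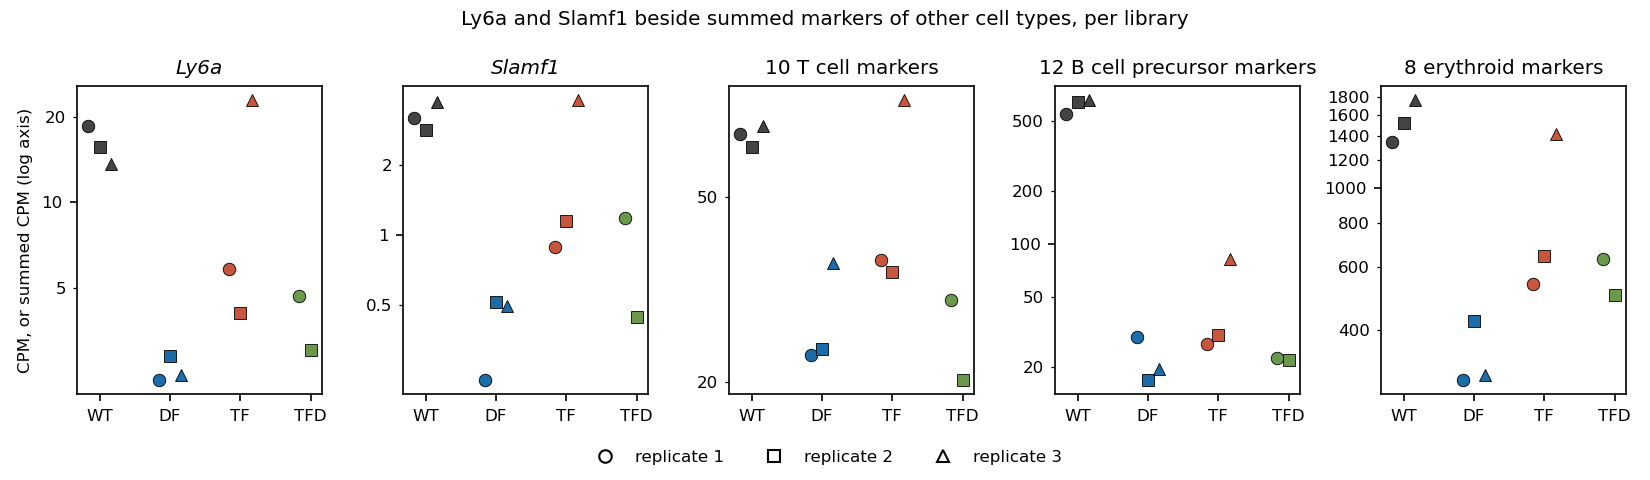
Ly6a and Slamf1 in CPM, and the summed CPM of T cell, B cell precursor and erythroid markers, in each library on log y axes; marker shapes give replicate numbers. TF replicate 3 lies at or above WT for Ly6a (22.9 CPM), Slamf1 (3.83 CPM) and T cell markers (80.8 CPM), within WT for erythroid markers, and between WT and the other mutant libraries for B cell precursor markers.

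Cd48 encodes the ligand of CD244 and is absent from long-term stem cells but present on most other leukocytes. Its level was 65.4, 81.5 and 80.9 CPM in WT, 212.3, 198.7 and 203.0 in DF, 305.4, 250.9 and 258.1 in TF, and 186.5 and 217.5 in TFD. The mutant libraries were all above WT, with TF replicate 3 in the middle of TF, and all 3 TF libraries were above all DF and TFD libraries. Cd48 was 2.70-fold higher in DF (95% interval 2.25 to 3.22, adjusted p = 7.53e-06), 3.58-fold in TF (2.98 to 4.29, adjusted p = 1.02e-06) and 2.66-fold in TFD (2.19 to 3.23, adjusted p = 1.54e-05). No setting or library left out removed any of these calls. Monocyte markers moved with it: all 5 were called higher in the mean of the mutants, and their sum was 1525.7 to 1691.9 CPM in WT and 4198.4 to 5474.1 in the mutants. Early granulocyte markers were called higher for 3 of 5, and late granulocyte markers for 0 of 6, with 1 lower. The part of myeloid cells in the Cd48 and Cd34 values was not tested.

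Cd48 and Slamf1 are neighbours. In mm10, Cd48 lies on chromosome 1 from 171682055 to 171705257 and Slamf1 from 171767132 to 171801184, both on the plus strand and 61875 bases apart, and Cd34 lies further along the same chromosome, from 194938821 to 194961292. The promoter windows of these 3 genes are printed because neighbours moved in opposite directions and because Cd34 rose with Cd48. Each runs from 250 bases before to 50 bases after the transcription start, from RefSeq on GRCm38.p6, in the order 5′ to 3′ on the plus strand. For Cd48 this start is base 171681992, so its window ends before the first base given above for the gene. Capitals mark the letters AACNG, the core that Myb proteins bind, or TGTGGT, a Runx core, on either strand (as CNGTT or ACCACA on the other strand).

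Cd48, chr1:171681742-171682041: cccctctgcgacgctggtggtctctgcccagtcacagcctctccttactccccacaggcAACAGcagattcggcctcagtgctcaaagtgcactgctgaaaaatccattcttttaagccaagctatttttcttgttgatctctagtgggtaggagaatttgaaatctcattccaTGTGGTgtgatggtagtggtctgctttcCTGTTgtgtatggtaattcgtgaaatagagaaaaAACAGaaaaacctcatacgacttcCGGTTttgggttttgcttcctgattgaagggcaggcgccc

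Slamf1, chr1:171766882-171767181: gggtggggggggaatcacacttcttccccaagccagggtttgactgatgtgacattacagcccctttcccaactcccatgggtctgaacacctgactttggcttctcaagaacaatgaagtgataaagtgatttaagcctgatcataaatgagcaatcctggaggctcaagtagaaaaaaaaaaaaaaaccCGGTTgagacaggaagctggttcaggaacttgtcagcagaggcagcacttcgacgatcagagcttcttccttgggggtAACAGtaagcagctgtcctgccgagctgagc

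Cd34, chr1:194938571-194938870: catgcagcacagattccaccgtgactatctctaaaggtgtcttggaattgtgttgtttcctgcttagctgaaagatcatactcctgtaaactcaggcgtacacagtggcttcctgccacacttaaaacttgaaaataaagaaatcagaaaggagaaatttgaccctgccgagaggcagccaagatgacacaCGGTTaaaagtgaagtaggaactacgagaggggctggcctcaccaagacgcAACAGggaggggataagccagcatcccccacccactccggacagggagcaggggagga

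AACNG was found 4 times in the window of Cd48 and 2 times each in those of Slamf1 and Cd34, and 80.3% of 32851 windows of this length hold it. TGTGGT was found in that of Cd48 only, 76 bases before the start, and 16.8% of windows hold it. The core of Gata sites, AGATAA, was found in none of the windows of the 9 members with a promoter in the table, and 11.2% of all windows hold it. The motifs do not overlap one another in these windows. Such matches are descriptions of the letters. The window of Ly6a was not analysed here.

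Other SLAM receptors are encoded near Cd48 and Slamf1, and the family was split. Of 8 receptors and adaptors tested beside the members, 4 were called higher and 2 lower in the mean of the mutants. In that comparison 22.4% of all genes tested were called higher and 19.7% lower. Cd244, whose product binds Cd48 protein, was called higher in DF, TF and TFD, with log2 fold changes of 0.74, 0.84 and 0.72 (SE 0.15 to 0.17). Ly9, a receptor that binds itself, was likewise higher, with 0.41, 0.98 and 0.67. These calls were not all stable: Cd244 in TFD was lost without TFD replicate 2 (0.49, adjusted p = 0.0887), and Ly9 in TFD without TFD replicate 1 (0.45, adjusted p = 0.106) and in DF without DF replicate 1 (0.32, adjusted p = 0.163), among others. Slamf8, a myeloid member, had the largest rise in the mean of the mutants, 1.41 (SE 0.36, adjusted p = 0.00798), which was narrowly lost without WT replicate 3 (1.12, adjusted p = 0.0527), and was called in TF (2.27) but not in DF (0.84, adjusted p = 0.13) or TFD (1.11, adjusted p = 0.0873). Slamf6, found on T, B and NK cells, had the largest fall, −2.95 (SE 0.29, adjusted p = 8.2e-06), and was called lower in all 3 genotypes. Cd84 passed the test in none (adjusted p = 0.111, 0.5 and 0.793). Slamf7, named after its values were seen, was called lower in DF (−0.88, SE 0.31) and higher in TF (0.89, SE 0.30), but neither call was stable. The DF call was lost without WT replicate 2 (adjusted p = 0.0766), WT replicate 3 (0.12), DF replicate 2 (0.0764) or DF replicate 3 (−0.64, 0.107), and the TF call without WT replicate 1 (0.12), WT replicate 2 (0.0981), TF replicate 1 (0.0683) or TF replicate 3 (0.53, 0.135).

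**Figure D3:**
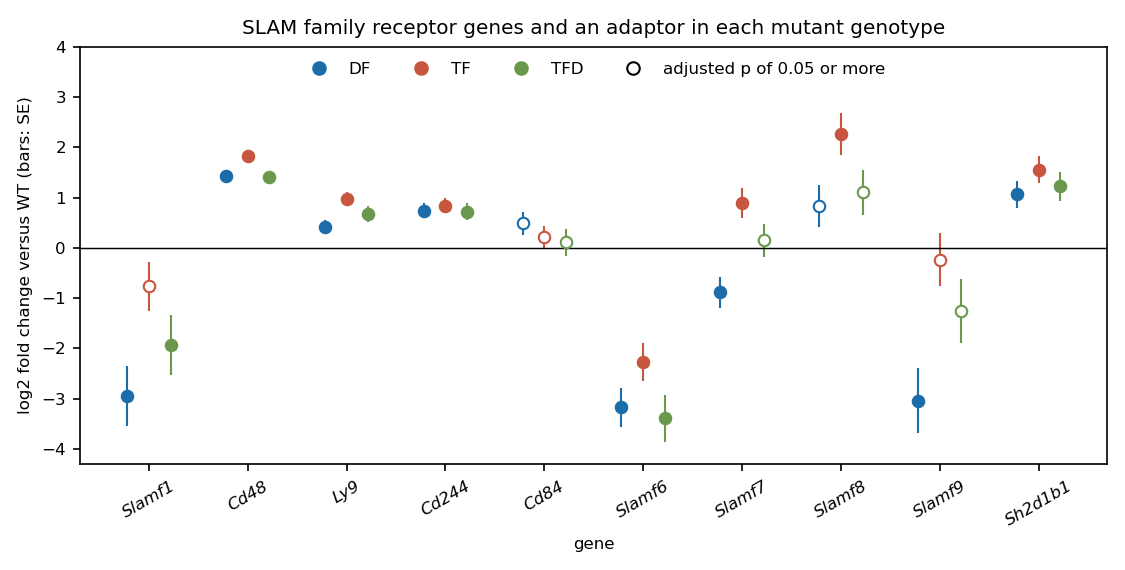
Log2 fold change against WT, with SE bars, of Slamf1, Cd48, the other SLAM receptor genes tested and the adaptor gene Sh2d1b1 in DF, TF and TFD; open circles have an adjusted p of 0.05 or more by edgeR's quasi-likelihood test. Cd48, Ly9 and Cd244 are above 0 in all 3 genotypes and Slamf1 and Slamf6 below.

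Cd27 encodes a receptor of the TNF receptor family, whose ligand is CD70, and is gained as stem cells become multipotent progenitors. Its level was 7.31, 6.31 and 6.98 CPM in WT, 11, 10.3 and 10.3 in DF, 13.3, 13.4 and 13.9 in TF, and 8.32 and 7.58 in TFD. The genotypes fell into separate ranges, with WT lowest, then TFD, DF and TF, and TF replicate 3 did not stand apart. Cd27 was 1.53-fold higher in DF (95% interval 1.24 to 1.89, adjusted p = 0.0046) and 1.96-fold in TF (1.59 to 2.41, adjusted p = 0.000263). In TFD the fold was 1.16 (0.913 to 1.46, adjusted p = 0.359). TFD minus TF was −0.76 on the log2 scale (95% interval −1.09 to −0.43), with an adjusted p of 0.191 by edgeR's quasi-likelihood test and 0.0255 by DESeq2. Traf5, an adaptor of Cd27, was called lower in DF (−0.77, SE 0.17, adjusted p = 0.00401), with −0.13 in TF and −0.32 in TFD (adjusted p = 0.57 and 0.244). Cd27 was called lower in no mutant genotype, beside the falls of T cell, NK cell and B cell precursor markers given above.

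Msi2 encodes Musashi-2, an RNA-binding protein that sustains stem cell self-renewal and represses translation of Numb. Its level was 49.3, 43.7 and 59.3 CPM in WT, 38.3, 38.7 and 34.2 in DF, 34.4, 41.0 and 40.2 in TF, and 41.2 and 35.2 in TFD. Every mutant library was below every WT library, by a small margin. The log2 fold changes of DF, TF and TFD were alike, at −0.46, −0.40 and −0.41 (SE 0.13 to 0.15), and the adjusted p values were 0.015, 0.03 and 0.0532, so TFD narrowly missed the threshold. The calls were lost without WT replicate 3 (−0.36, adjusted p = 0.0502 in DF, and −0.28, adjusted p = 0.118 in TF) and, in TF, without TF replicate 1 (−0.33, adjusted p = 0.128). In TFD, DESeq2 made the call (−0.43, adjusted p = 0.0338). Numb transcript, named after its values were seen, was called lower in TF (−0.64, SE 0.14) and had −0.08 in DF and −0.42 in TFD (adjusted p = 0.693 and 0.0673).

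Myb encodes c-Myb, which is required for definitive blood formation and is high in progenitors of several lineages. Its level was 285.9, 307.1 and 317.5 CPM in WT, 270.1, 313.0 and 312.6 in DF, 223.9, 277.3 and 185.7 in TF, and 268.0 and 243.6 in TFD. TF and TFD lay below WT and DF overlapped WT, and TF replicate 3 was the lowest library. TF was called, with a log2 fold change of −0.41 ± 0.13 (SE) and an adjusted p of 0.0328. TFD and DF were not, at −0.25 and −0.02, with adjusted p values of 0.252 and 0.901. The TF call was lost without TF replicate 3 (−0.28, adjusted p = 0.123), TF replicate 1 (adjusted p = 0.0979), WT replicate 2 (adjusted p = 0.0817) or WT replicate 3 (adjusted p = 0.0859). Bcl2, Myc, Kit and Ccnb1, which Myb is known to regulate, did not move together. They are a few chosen genes in unsorted marrow, and whether Myb acts on them here was not tested. Bcl2, which blocks cell death and was named after its values were seen, was called higher in DF (0.66, SE 0.12), TF (1.15, SE 0.12) and TFD (1.04, SE 0.13). Myc and Kit passed in none of the 3 genotypes, and Ccnb1 was called only in TFD, where it was lower (−0.44, SE 0.14, adjusted p = 0.0404). Without TFD replicate 2 the Ccnb1 call was lost (−0.28, adjusted p = 0.257), as it was without any of the WT libraries.

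Sox4 encodes an HMG-box transcription factor of progenitors and B cell precursors. Its level was 38.8, 31.9 and 43.8 CPM in WT, 28.1, 23.2 and 24.9 in DF, 37.7, 40.7 and 27.7 in TF, and 30.7 and 26.6 in TFD. DF and TFD lay below WT, and TF overlapped it. DF was called, with a log2 fold change of −0.59 ± 0.16 (SE) and an adjusted p of 0.0114. TFD and TF were not, at −0.42 and −0.11, with adjusted p values of 0.103 and 0.603. Without DF replicate 2 the DF call was narrowly lost (−0.53, adjusted p = 0.053). B cell precursor markers, given above, were lower in the same libraries and also in TF.

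Mecom encodes the zinc finger factors Evi1 and Mds1-Evi1, which maintain stem cells. It was the scarcest member per length in WT and TF, with 16, 9 and 24 counts in WT, 27, 35 and 27 in DF, 19, 21 and 19 in TF, and 36 and 30 in TFD. WT spread from 1.11 to 2.15 CPM and overlapped DF and TF, whereas both TFD libraries were above it, at 2.25 and 2.67 CPM. The log2 fold changes of DF, TF and TFD were 0.60 (95% interval −0.05 to 1.25), 0.11 (−0.57 to 0.78) and 0.66 (−0.05 to 1.38), with adjusted p values of 0.134, 0.82 and 0.158. RefSeq gives Mecom starts 496555 bases apart, and counts per gene do not separate transcripts from them. At this depth a rise of Mecom of up to 2.38-fold in DF or 2.59-fold in TFD was within the interval.

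**Figure D4:**
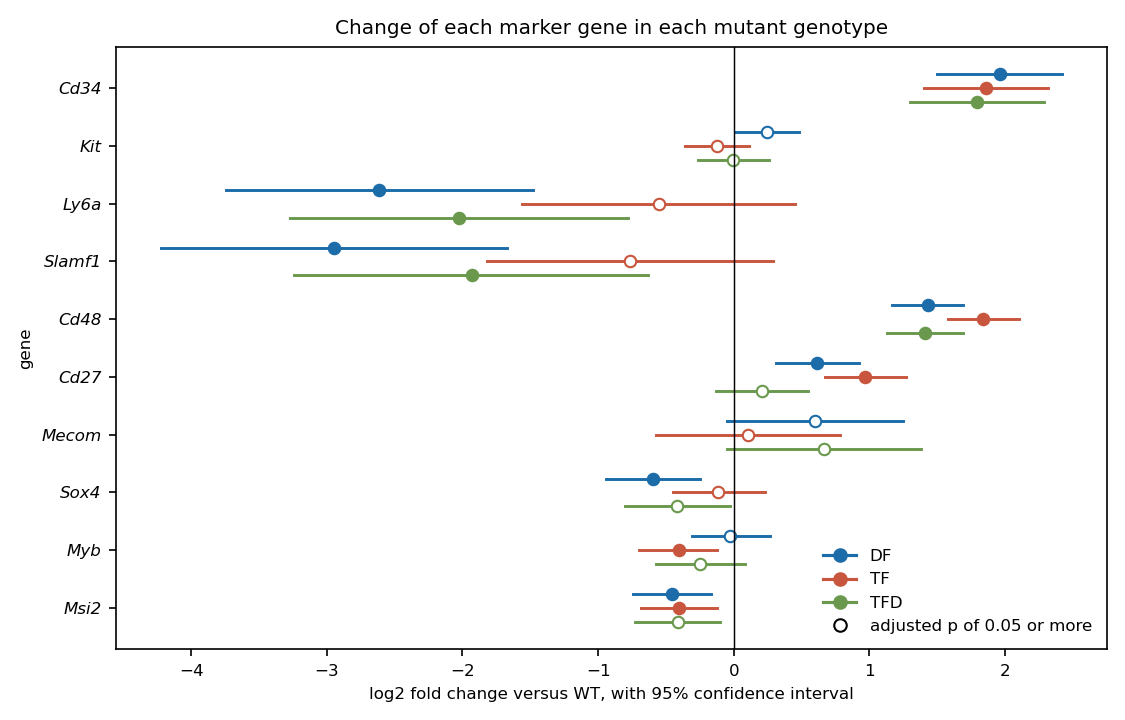
Log2 fold change of each member against WT in DF, TF and TFD with 95% confidence intervals; filled circles passed edgeR's quasi-likelihood test at an adjusted p under 0.05. Cd34 and Cd48 lie above 0 in all 3 genotypes, and the widest intervals are those of Slamf1 and Ly6a.

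The genotypes were then compared with one another. In DF versus TF, 1 member was called, lower in DF, where 5.94% of all genes were called, 1.67% higher and 4.27% lower. Of these calls over all genes 28.1% were higher, and 13.9% with library totals. The member was Ly6a, with a log2 difference of −2.06 (SE 0.52, adjusted p = 0.039). This call was lost with only DF and TF in the fit (−2.09, adjusted p = 0.0818), with limma voom (adjusted p = 0.16) and without any of the DF libraries (adjusted p = 0.105, 0.127 and 0.122). Without TF replicate 3 the difference was −0.93 (adjusted p = 0.0836), and then Sox4 was called (−0.63, adjusted p = 0.0373). Slamf1 (−2.18, adjusted p = 0.0557), Cd48 (−0.41, adjusted p = 0.0587) and Kit (0.37, adjusted p = 0.0633) were close to the threshold and were called by DESeq2 (adjusted p = 0.0123, 0.0103 and 0.0474).

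No member was called between TFD and DF or TF by edgeR's quasi-likelihood test, although the Cd27 libraries of TFD lay below those of both. In TFD versus DF 0 members were called, where 0% of all genes were called by edgeR's quasi-likelihood test (1727 genes at an unadjusted p under 0.05, and 258 called by DESeq2). That count of 0 depended on single libraries: the same test called 384 genes (147 higher and 237 lower) without TFD replicate 1 and 229 (174 higher and 55 lower) without TF replicate 3, and 0 members in either. In TFD versus TF 0 members were called, where 0.0164% of all genes were called by edgeR's quasi-likelihood test (1068 at an unadjusted p under 0.05). DESeq2 called 131 genes, among them 1 member, Cd27. Without reaching an adjusted p under 0.05, TFD minus DF was −0.41 for Cd27 (95% interval −0.74 to −0.07), and TFD minus TF was −0.43 for Cd48 (−0.71 to −0.14). The intervals of Ly6a (−0.72 to 1.90) and Slamf1 (−0.55 to 2.57) in TFD minus DF were wide.

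**Figure D5:**
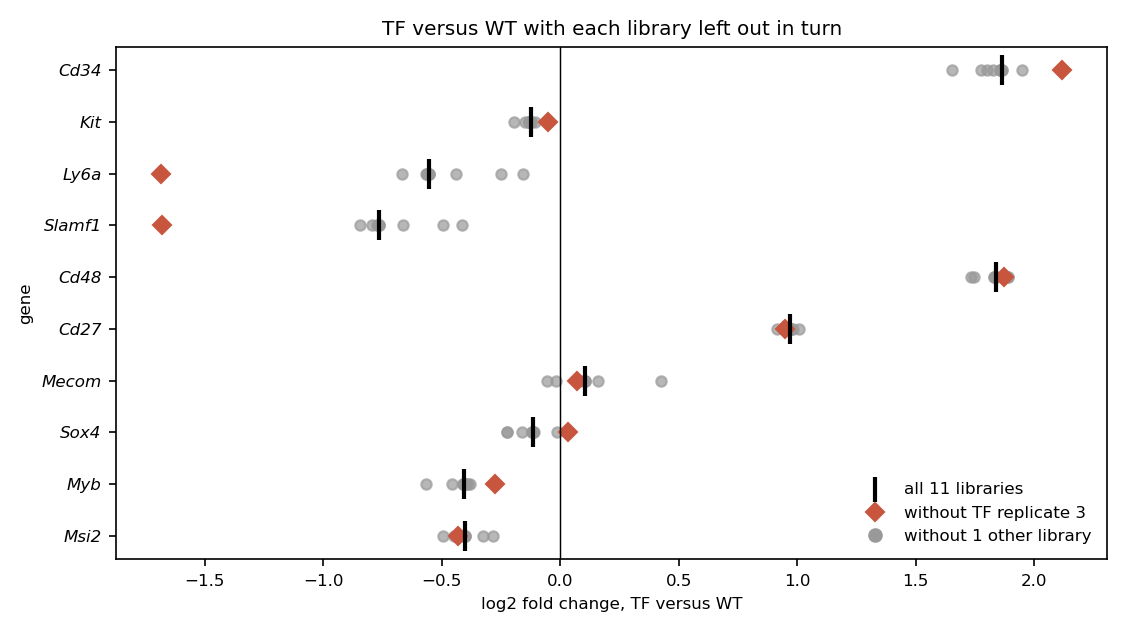
Log2 fold change of each member in TF versus WT with all 11 libraries (black bars), without TF replicate 3 (red diamonds) and without each other library in turn (grey points). Ly6a and Slamf1 move to −1.68 without TF replicate 3, whereas Cd48 and Cd27 stay within 1.73 to 1.89 and 0.92 to 1.01.

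Divided by gene length, as RPKM (CPM per kilobase of gene length), the members could be ordered within a genotype. In WT, Myb was highest (mean 80.4 RPKM), then Cd48 (66.5), and their libraries did not overlap. Ly6a (15.9), Kit (14.9), Cd34 (14.3) and Sox4 (12.9) followed, with each overlapping the next, and then Msi2 (7.45), Cd27 (4.36), Slamf1 (1.22) and Mecom (0.277), each apart from its neighbour. In DF, TF and TFD, Cd48 was the highest (179.2, 237.7 and 176.9 RPKM), followed by Myb and then Cd34, with Myb and Cd34 overlapping in TF. Ly6a was at 2.58 RPKM in DF, 3.85 in TFD and 10.9 in TF, where the mean was carried by replicate 3 (22.8 RPKM against 5.81 and 4.08). Slamf1 was below Mecom in DF (0.155 against 0.428 RPKM), and the 2 overlapped in TFD.

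The genes most like each member were taken as those with the smallest root mean square difference of centred log2 CPM over the 11 libraries. For Cd34, which itself varied by 0.87 on this measure, they were Fam129b (0.18), Aldh1b1 and Tifab (0.19 each). For Cd48 (0.73) they were Hspb11 (0.09), P2rx7 (0.12) and Vwa5a (0.13). For Ly6a (1.19) they were Ctse (0.25), Gbp4 (0.32) and St6gal1 (0.32), and for Slamf1 (1.31) 1300017J02Rik (0.28), Fhdc1 (0.28) and Icam4 (0.32). Ctse, at 168.8 to 205.8 CPM in WT and 287.5 in TF replicate 3, against 30.1 to 59.1 in the other mutant libraries, separated the same libraries as Ly6a did. For Cd27 they were Psme2, Zfp277 and Rpl10, for Msi2 Fen1, Dut and Uhrf1bp1, for Myb Hmgn2, Atg3 and Ccdc57, and for Kit Rab2a, Fli1 and Fuk. For Sox4 and Mecom, the nearest were Ccdc137 and Eid2b, with differences of 0.18 each against a spread of 0.29 and 0.39 in the members themselves. The points share libraries and genotypes, so likeness is a description.

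Other genes of stem cells and progenitors moved in both directions. Of 20 other stem cell genes listed 12 were tested, and in the mean of the mutants, where 22.4% of all genes were called higher and 19.7% lower, 0 were called higher and 4 lower, with a median log2 fold change of −0.41 beside 0.03 over all genes. Mllt3, which sustains stem cell self-renewal, fell most (−1.52, SE 0.18, adjusted p = 3.03e-05), from 32.9 to 44.8 CPM in WT to 8.81 to 25.0 in the mutants, the highest of which was TF replicate 3. Hlf, a factor enriched in stem cells, passed the test in none of the 3 genotypes (log2 fold change −0.03, −0.53 and −0.26, adjusted p = 0.933, 0.109 and 0.508). Among transcription factors of stem and progenitor cells, 7 of 22 were called higher and 7 lower in the mean of the mutants. Hoxa9, Lyl1, Zfp521 and Meis1, factors of immature cells named after their values were seen, were among the 7 higher, at 1.06 (SE 0.22), 0.73 (SE 0.10), 0.82 (SE 0.19) and 0.55 (SE 0.18). Meis1 lost its call without any of the WT libraries (adjusted p = 0.0686, 0.0966 and 0.0566). Next to Ly6a, 1 of 5 Ly6 genes tested was called higher and 2 lower in the mean of the mutants. Ly6c2, a marker of monocytes, rose (0.85, SE 0.16, adjusted p = 0.00114), and Ly6d, a marker of B cell precursors, fell (−3.89, SE 0.46, adjusted p = 3.42e-05). Ly6e passed the test in none of the genotypes (adjusted p = 0.21, 0.0848 and 0.14). Reads of such similar genes may be split among them, so Ly6a and Ly6c2 values carry that uncertainty.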

How the data were processed

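Whole bone marrow RNA was depleted of globin transcripts and sequenced with a stranded kit. The authors aligned reads to mm10 with STAR, kept unique alignments and counted them on refGene genes with featureCounts. The table deposited by the authors gives raw counts for 12199 genes, already limited by the authors to genes above 0.5 CPM in more than 3 samples. Its log2 CPM columns, also deposited, were recovered from the counts within 5e-09 by edgeR with a prior count of 0.25, and it gives each gene length. Tool versions, and whether featureCounts used strand, are not given in the sources used here, so reads of Sox4, Myb, Cd34 and Mecom could include antisense genes, which overlap 31.9%, 13.0%, 5.6% and 1.5% of their exon bases. TFD replicate 3 was not analysed here.

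The 12175 genes that exceeded 0.5 CPM in over 3 of these 11 libraries were tested in R 4.3.3 with edgeR 4.0.16: TMM factors (0.924 to 1.043), a mean for each of 4 genotypes, the quasi-likelihood test and Benjamini-Hochberg adjustment over all genes. Confidence intervals used t quantiles at the model's total degrees of freedom (12.8 for the members), prior and residual together. Each SE was the log2 fold change divided by the square root of the F statistic. RPKM used the deposited length. Totals of 8274153 to 15900904 counts limit low genes, and intervals cover only the spread between these libraries. On simulated counts the tests were checked for recovery of known changes. The alternatives were DESeq2 1.42.0, library totals, RLE factors, no filter, filterByExpr, only the groups compared, limma 3.58.1 voom, a replicate block, a term for libraries with many Xist reads, each library left out and, added after the data were seen, only libraries with few Xist reads. Figures used matplotlib 3.10.9.

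The members and gene lists were chosen with earlier results of these data known. Genes were named by rule: every member, the targeted genes, chosen ligands, partners and relatives, the called gene of each list with the largest change in either direction in the mean of the mutants, and the 3 genes most like each member whose mean log2 CPM reached 1. Some genes that the rule selects are not reported here. The 16 lists were of stem cell, transcription factor, SLAM, Ly6, partner, gate and lineage genes.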

Additional observations from a re-analysis of the deposited data

Results flagged for a closer look

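Whether a change from WT differed between DF and TF was tested directly as the difference DF minus TF, by edgeR's quasi-likelihood test. The differences that passed were set apart here, except that of Cdh5, which is given above. Among the members this was Ly6a, with a log2 difference of −2.06 (adjusted p = 0.039), lower in all 3 DF libraries than in all 3 TF libraries. That call was lost with only DF and TF in the fit (adjusted p = 0.0818), with limma voom (0.16), the replicate block (0.0617) and the Xist term (0.106), and without any DF library (0.105 to 0.127), WT replicate 2 (0.0578), WT replicate 3 (0.0506) or TF replicate 3 (0.0836). Among SLAM receptor genes it was Slamf9 (−2.82), Slamf7 (−1.76), Slamf8 (−1.42) and Ly9 (−0.57), each lower in DF. Among partners and targets of the members it was Podxl (−1.42), Traf5 (−0.64) and Bcl2 (−0.49), lower in DF, and Numb (0.56), higher in DF. Among the other named genes, Ermap (−2.86), an erythroid marker, Klrd1 (−2.29), found on NK cells, Il7r (−2.22), Gfi1b (−2.21) and Ly86 (−0.51) were lower in DF, and Gata2 (0.92) was higher. TF replicate 3 was the highest TF library for Ly6a, Slamf9, Slamf7, Slamf8, Ly9, Podxl, Traf5, Klrd1, Il7r, Gfi1b and Ermap. Without it the differences of Ermap (−1.78, adjusted p = 0.000339) and Il7r (−1.19, 0.0327) were smaller and still called, and those of Gfi1b (−1.41, 0.0986) and Slamf9 (−1.85, 0.0864) were smaller and not called. Of all these differences, only that of Slamf7 was called whichever single library was left out. Whether single libraries of a genotype were outliers was not tested.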

How the results depend on the processing

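Of the members' log2 fold changes under settings that kept all libraries or the few-Xist ones, 650 kept direction and side of the threshold, 14 gained a call, 10 lost one and 16 changed sign. In DF versus TF the 1 member called became 4 with DESeq2 (8.8% of all genes called, against 5.94%), 3 with library totals (6.28%), 2 with RLE factors (5.98%), 2 in libraries with few Xist reads (4.37%), and 0 with limma voom (3.89%), the replicate block (4.93%) or the Xist term (4.25%). In TFD versus TF it became 1 with DESeq2. Leaving out 1 library gave 6 to 7 members in DF versus WT (28.0% to 40.1% of all genes), 3 to 6 in TF versus WT (23.4% to 37.1%), 2 to 4 in TFD versus WT (19.4% to 28.6%), 6 to 8 in the mean of the mutants (31.5% to 44.2%), 0 to 4 in DF versus TF (1.39% to 7.66%), and 0 in TFD versus DF (up to 3.15%) and versus TF (up to 0.624%). With only few-Xist libraries, which leave 1 TFD library and no estimate of spread from TFD, Msi2 (adjusted p = 0.105) and Myb (0.194) lost their calls in TF, Slamf1 (0.0529) in TFD, and Sox4 (0.221) and Msi2 (0.0682) in the mean of the mutants. Under that setting Ly6a (−1.79, adjusted p = 0.000147) and Slamf1 (−1.58, 0.00788) gained calls in TF and Sox4 (−0.66, 0.0159) in DF versus TF.

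The sign changes are these. Against WT these were Sox4 in TF (0.14 with few-Xist libraries) and Kit in TFD (0.002 with library totals and with the Xist term, 0.009 with the block). In DF versus TF it was Cd34 (−0.19 with few-Xist libraries). In TFD versus DF they were Cd34 (0.04), Mecom (−0.12) and Msi2 (−0.004) with the Xist term, Mecom (−0.02) with few-Xist libraries, and Cd48 with DESeq2 (0.009), RLE factors (0.009) and library totals (0.073). In TFD versus TF they were Cd34 with the Xist term (0.044), Slamf1 (0.23, from −1.17 with all libraries) and Msi2 (0.13) with few-Xist libraries, and Msi2 with the block (0.019). Leaving out 1 library gave ranges that crossed 0 for Myb in DF (−0.101 to 0.024), Mecom (−0.054 to 0.427) and Sox4 (−0.225 to 0.033) in TF, Kit in TFD (−0.03 to 0.029) and in the mean (−0.003 to 0.063), Cd34 in DF versus TF (−0.16 to 0.31), Mecom (−0.026 to 0.188), Cd48 (−0.101 to 0.088) and Msi2 (−0.076 to 0.182) in TFD versus DF, and Cd34 (−0.33 to 0.14) and Msi2 (−0.13 to 0.11) in TFD versus TF. The cause was not tested.

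Over all genes, calls in TFD versus DF went from 0 to 258 with DESeq2, 135 with only the groups compared, 42 with the replicate block and 150 with few-Xist libraries. In TFD versus TF they went from 2 to 131, 0, 2 and 15, and to 22 with the Xist term. In DF versus TF limma voom called 474 in place of 723. Same-numbered libraries of different genotypes correlated at −0.30 to 0.25 in their deviations, so the numbers were not taken as pairs. With the replicate block, Slamf1 in TFD (adjusted p = 0.0544) and Ly6a in DF versus TF (adjusted p = 0.0617) lost their calls. Dropping the filter and filterByExpr gave the same 12199 genes. Depth limits Slamf1 and Mecom most, with 3 to 42 and 9 to 36 counts per library.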

Other observations

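Transcription factors of stem and progenitor cells moved in both directions. Of 22 tested, 7 were called higher and 7 lower in the mean of DF, TF and TFD against WT by edgeR's quasi-likelihood test. Over all genes tested, that comparison called 22.4% higher and 19.7% lower. Cebpa, which drives granulocyte and monocyte fate, rose most, by 1.44 on the log2 scale (SE 0.11, adjusted p = 1.51e-06), from 54.8, 52.0 and 60 CPM in WT to 120.6 to 185.4 in the 8 mutant libraries. Gfi1b, which acts in erythroid and megakaryocyte development, fell most (−2.58, SE 0.36, adjusted p = 0.00011), and TF replicate 3 held 16.9 CPM of it against 3.31 and 6.95 in the other TF libraries. Gata2, a factor of stem cells and of mast cells, was called lower in TF (−1.35, SE 0.20, adjusted p = 0.000294), with −0.43 in DF and −0.54 in TFD (adjusted p = 0.0896 and 0.079).

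Of 12 genes used beside the members to gate progenitors, 6 were called higher and 3 lower in the mean of the mutants. Over all genes tested, 22.4% were called higher and 19.7% lower in that comparison. Ly86, found on myeloid and B cells, rose by 1.49 (SE 0.13, adjusted p = 3.29e-06) and Il7r, the receptor gene of lymphoid progenitors, fell by 3.67 on the log2 scale (SE 0.33, adjusted p = 5.31e-06). Flt3, the targeted receptor gene that multipotent progenitors carry, was called higher in DF (0.93, SE 0.28), TF (1.38, SE 0.28) and TFD (1.94, SE 0.30). The TFD value rested on replicate 2, with 130.4 CPM against 58.9 in replicate 1, and without replicate 2 it was 1.27 (adjusted p = 0.00738). The DF call was lost without DF replicate 1 (0.71, adjusted p = 0.0936), WT replicate 2 (0.0632) or WT replicate 3 (0.0836). In the mean of the mutants, Flt3 had the largest rise (1.42, SE 0.25) among the 14 partners and targets tested. In TF alone, Podxl rose more (2.0 against 1.38). Of these 14, 3 were called higher and 2 lower in the mean, near the shares over all genes given above.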
